A study of Sus scrofa with 6 samples.

Results

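The MHC class I peptide-loading genes are a set of 9 named genes, of which 7 could be matched by symbol to a row in a table of 18225 gene identifiers from pig brain. These are the chaperones CALR, CANX and PDIA3, the loading factors TAPBP and TAP2, and the aminopeptidases ERAP1 and ERAP2. Each of them had 1 row. TAP1 and B2M were not matched to a row and are not analysed here. Polyadenylated RNA was sequenced from tissue labelled brain, with no region named, in 3 Rongchang pigs and 3 wild boars. Rongchang is a domesticated Chinese breed, the wild boars carry no breed or population label, and all animals were 210 days old. There was 1 library per animal, no treatment is recorded, and the title of the study asks whether immune responses differ between the domesticated and the wild animals. The labels do not say where the animals were raised or whether they were related. P-values set the difference between the groups against the spread among these libraries only. Breed therefore cannot be told apart from rearing or relatedness here.

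MHC class I molecules carry short peptides from inside the cell to its surface, where cytotoxic T cells inspect them. Peptides cut by the proteasome are pumped into the endoplasmic reticulum by the transporter formed by TAP1 and TAP2, and are trimmed there by ERAP1 and ERAP2. Newly made heavy chains are folded with the help of calnexin (CANX), pair with beta-2-microglobulin (B2M), and wait for a peptide in a complex of calreticulin (CALR), the disulfide isomerase ERp57 (PDIA3) and tapasin (TAPBP), which holds the empty molecule beside the transporter. Calnexin, calreticulin and ERp57 fold many other glycoproteins and are made by most cells. In the resting brain, class I presentation genes are better known from microglia and vascular endothelium than from neurons, and interferon raises the transporter, tapasin and the immunoproteasome.

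Values are FPKM, that is, fragments counted relative to transcript length and to all fragments mapped, so levels can be compared between genes. Sequencing depth is unknown for these values. Brain markers were abundant: the synaptic gene SNAP25 ran from 786 to 1156 FPKM, and none of the neuron, astrocyte or oligodendrocyte markers with a row was at 0 in any library. A fact of the whole table touches every comparison. The median fold change over all genes, wild boar minus Rongchang in log2(FPKM + 1), was −0.13, and 77.9% of the 13152 genes tested had a fold change below 0. Scaling each library to the same median brought the median gene to 0.02. Mitochondrially encoded genes held 30.0% of the summed FPKM in Rongchang 3 and 39.9% to 46.8% in the other libraries. Rescaling without these genes left the median gene at −0.12. The libraries of animals numbered 2 in both breeds stood apart from the other 4 on the first principal component, which held 38.8% of the variance. In bulk tissue, fewer cells of a type and less RNA per cell cannot be told apart.

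The 7 genes fell into separate tiers of abundance. The chaperones were among the most abundant messages in the tissue, TAPBP was intermediate, the aminopeptidases were low, and TAP2 was barely detected. CALR had a mean of 120.1 FPKM over the 6 libraries, a level above that of 96.8% of the genes tested. CANX followed at 84.9 FPKM and PDIA3 at 77.7 FPKM, above 95.3% and 94.8% of the genes tested. TAPBP stood at 11.9 FPKM, above 65.1% of them. ERAP1, at 2.85 FPKM, was above 22.3%, and ERAP2, at 1.33 FPKM, above 5.37%. TAP2 averaged 0.154 FPKM, a level that the filter for testing, 1 FPKM in at least 3 libraries, places below every gene tested. Over all rows, tested or not, TAP2 was above 12.7% and ERAP2 above 31.3%. CALR was above CANX and CANX above PDIA3 in each of the 6 libraries. The gap between PDIA3 and CANX was small in wild boar 3, at 82.9 and 83.3 FPKM.

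**Figure D1:**
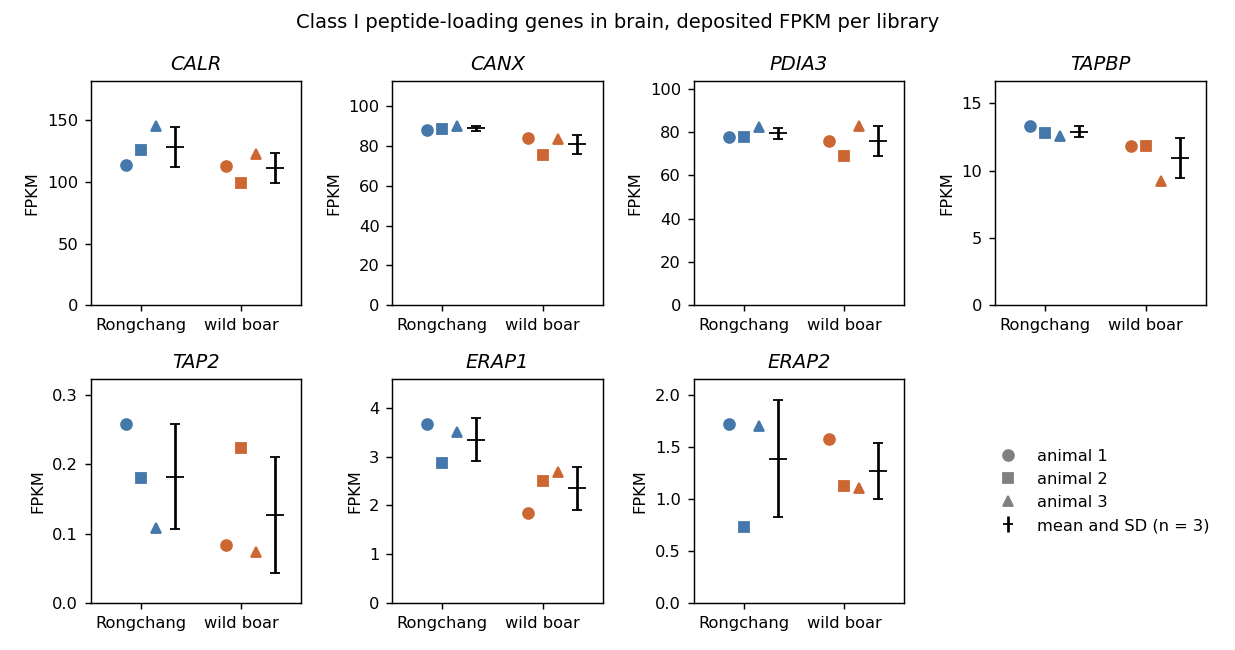
Deposited FPKM of the 7 class I peptide-loading genes, with 1 panel per gene, the breeds on the x axis, 1 symbol per animal, and the mean and SD (n = 3) as a black bar. Each y axis starts at 0 and has its own range. The wild boars lie below all Rongchang pigs for CANX, TAPBP and ERAP1, as they do for 11.4% of all genes tested. The breeds overlap for the other 4 genes.

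No member passed the test between the breeds. Of the 7 genes, 6 reached the minimum of 1 FPKM in at least 3 libraries and were tested, and TAP2 did not. All 6 had a fold change below 0, against 77.9% of all genes tested, and their median was −0.17 against −0.13 for all genes. Relative to the median gene, 4 of the 6 lay lower and 2 higher. By limma, 0 of the 6 had an adjusted p under 0.05, where 0.00760% of all genes did (1 gene, not a member), and adjusted p of the members ran from 0.789 to 0.961. At an unadjusted p under 0.05, 1 of the 6 (ERAP1) was lower in wild boar, where 5.42% of all genes were. The breeds did not overlap, with all wild boars lower, for 3 of the 6, where the same held for 11.4% of all genes. After median scaling 0 of the 6 kept the breeds apart, and only 3 of the 6 fold changes were below 0.

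**Figure D2:**
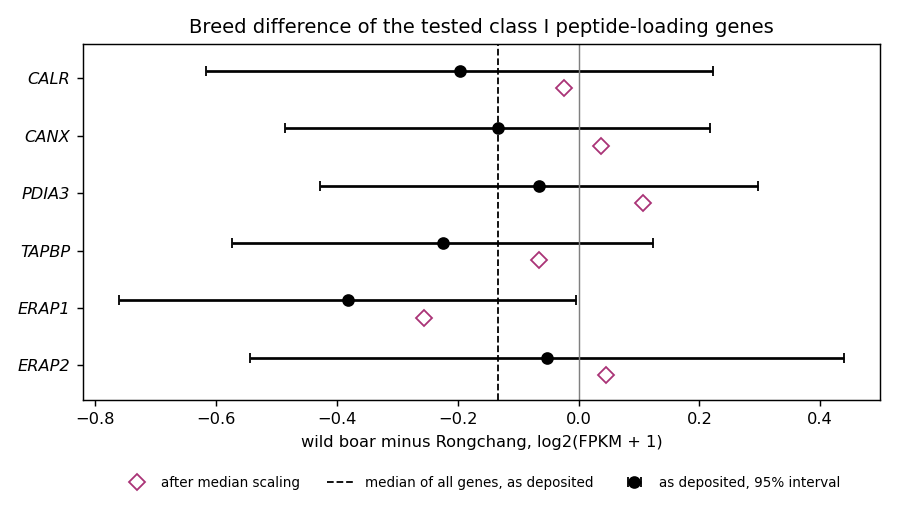
Difference between breeds for the 6 tested genes, in log2(FPKM + 1), with negative values lower in wild boar. Black points with bars are the deposited values with the 95% interval from limma, open diamonds are the same differences after median scaling, and the dashed line marks the median of all genes at −0.13. ERAP1 lies farthest below the dashed line, and every diamond lies to the right of its black point.

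ERAP1 showed the largest log2(FPKM + 1) difference among the 6 tested members. This aminopeptidase of the endoplasmic reticulum shortens peptide precursors to the length that class I molecules bind. It was at 3.68, 2.86 and 3.51 FPKM in Rongchang 1, 2 and 3, and at 1.85, 2.50 and 2.70 FPKM in wild boar 1, 2 and 3. All wild boars lay below all Rongchang pigs, but the lowest Rongchang and the highest wild boar value were close. The means were 3.35 ± 0.432 and 2.35 ± 0.444 FPKM (SD, n = 3 each). The log2 fold change was −0.38 with a standard error of 0.16, a 95% interval of −0.76 to −0.0043, and an adjusted p of 0.789 in limma. Its unadjusted p of 0.048 moved to between 0.0387 and 0.167 when 1 library was left out, and exceeded 0.05 without Rongchang 1, Rongchang 3, wild boar 1 or wild boar 2. After median scaling the breeds overlapped, with wild boar 3 at 2.96 and Rongchang 2 at 2.69, and the fold change was −0.26. In RefSeq's Sscrofa11.1 annotation ERAP1 overlaps the end of its neighbour CAST, and since it is unknown whether counting used strand, reads at that end are uncertain.

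ERAP2, the related aminopeptidase that trims peptides alongside ERAP1, took the same order as ERAP1 among the Rongchang pigs and the opposite order among the wild boars. It was at 1.72, 0.734 and 1.70 FPKM in the Rongchang pigs and at 1.57, 1.12 and 1.10 FPKM in the wild boars. Rongchang 2 held the lowest value of all 6 libraries and the other 2 Rongchang pigs the highest. The means of 1.39 ± 0.566 and 1.27 ± 0.268 FPKM differed by less than the spread within Rongchang (log2 fold change −0.05, 95% interval −0.54 to 0.44, limma adjusted p = 0.961). Without both libraries numbered 2 the fold change was −0.22, and its sign turned to 0.05 after median scaling. The ratio of ERAP1 to ERAP2, which does not depend on how a library is scaled, was 2.13, 3.9 and 2.06 in Rongchang and 1.17, 2.23 and 2.45 in wild boar. The ratios overlapped (exact permutation test, two-sided, p = 0.6, and 0.7 adjusted over the 3 ratios computed). The extremes of this ratio were Rongchang 2 and wild boar 1. LNPEP, which encodes a related peptidase of endosomes and lies next to ERAP2 in RefSeq's annotation, was at 2.80, 2.74 and 1.26 FPKM in the Rongchang pigs and at 2.34, 2.29 and 1.44 FPKM in wild boar. It was lowest in the library numbered 3 in both breeds, as ERAP2 was in wild boar only.

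TAPBP encodes tapasin, which bridges the empty class I molecule to the transporter and favours tightly binding peptides. It was at 13.3, 12.8 and 12.6 FPKM in the Rongchang pigs, a narrow range, and at 11.8, 11.9 and 9.24 FPKM in the wild boars. All wild boars were lower, and wild boar 3 lay well below the other 2. The means were 12.9 ± 0.385 and 10.97 ± 1.5 FPKM. The log2 fold change of −0.22 had a 95% interval of −0.57 to 0.12 and did not pass (limma adjusted p = 0.842), and was −0.12 without wild boar 3. That library also held 34.2 FPKM of TTR, a choroid plexus gene, against 0.12 to 3.01 FPKM in the other 5. The other 4 choroid plexus and ependyma markers with a row (KCNJ13, CLIC6, FOXJ1 and CFAP126) were not highest there. After median scaling TAPBP overlapped between the breeds, at 12.2 ± 0.834 and 11.7 ± 1.40. In RefSeq's annotation TAPBP overlaps its neighbour ZBTB22, so reads in that stretch are uncertain.

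TAP2 encodes a subunit of the peptide transporter. It was at 0.258, 0.180 and 0.108 FPKM in the Rongchang pigs and at 0.0828, 0.223 and 0.0735 FPKM in wild boar. The breeds overlapped, and the highest value was 3.52 times the lowest. With every value far under the minimum of 1 FPKM, TAP2 was not tested, and at an unknown depth no order is read from these levels. The immunoproteasome subunit PSMB9, which lies next to TAP1 in RefSeq's annotation, was also low, at 0.144, 0 and 0.461 FPKM in the Rongchang pigs and at 0.283, 0.0776 and 0.245 FPKM in wild boar.

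CALR, the soluble lectin chaperone calreticulin, was at 113.5, 125.9 and 145.6 FPKM in the Rongchang pigs and at 113.3, 98.9 and 123.1 FPKM in wild boar. The lowest Rongchang value lay within 1 FPKM of wild boar 1, and wild boar 2 was the lowest library. The means of 128.4 ± 16.2 and 111.8 ± 12.2 FPKM gave a log2 fold change of −0.20 (95% interval −0.62 to 0.22, limma adjusted p = 0.857). It was −0.02 after median scaling.

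CANX, the membrane-bound lectin chaperone calnexin, was the steadiest of the 7. Its coefficient of variation over all 6 libraries was 6.28%, and 98.4% of the genes tested varied more. It was at 87.9, 88.5 and 90.1 FPKM in the Rongchang pigs and at 84.1, 75.4 and 83.3 FPKM in wild boar. The Rongchang pigs lay within a few FPKM of each other, and all wild boars lay below them. The means were 88.8 ± 1.15 and 80.97 ± 4.81 FPKM, a log2 fold change of −0.13 (95% interval −0.49 to 0.22, limma adjusted p = 0.874), close to that of the median gene. After median scaling the fold change was 0.04 and the breeds overlapped.

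PDIA3, the thiol oxidoreductase ERp57 that works with both lectin chaperones and is bound to tapasin in the loading complex, varied as little, with a coefficient of variation of 6.44%. It was at 77.8, 77.9 and 82.4 FPKM in the Rongchang pigs and at 75.99, 69.1 and 82.9 FPKM in wild boar. Wild boar 3 held the highest and wild boar 2 the lowest value of all 6 libraries. The means of 79.4 ± 2.62 and 75.99 ± 6.87 FPKM overlapped (log2 fold change −0.07, 95% interval −0.43 to 0.30, limma adjusted p = 0.934), and the fold change was 0.11 after median scaling.

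The chaperones kept steady proportions to each other. CALR made up 38.1% to 43.3% of the summed FPKM of the 7 genes in each library, CANX 26.8% to 29.5% and PDIA3 24.5% to 27.4%. The PDIA3 share was 26.1%, 25.2% and 24.5% in the Rongchang pigs and 26.3%, 26.7% and 27.4% in the wild boars, so that the breeds did not overlap and wild boar was higher by a small margin. The shares of all other members overlapped between the breeds. Shares of the same sum depend on each other, and the PDIA3 share was not tested. TAPBP made up 3.05% to 4.58%. The ratio of CALR to CANX ran from 1.29 to 1.62 in Rongchang and from 1.31 to 1.48 in wild boar (p = 0.7 by an exact two-sided permutation test; 0.7 adjusted over the 3 ratios). PDIA3 stood at 5.83 to 6.55 times TAPBP in Rongchang and at 5.83 to 8.97 times in wild boar (exact permutation test, p = 0.7; 0.7 adjusted). The top value was wild boar 3, the library with the least TAPBP. With 3 animals against 3, p cannot go below 0.1.

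Summed over the 7 genes, Rongchang held 298.3, 308.8 and 336.1 FPKM and wild boar 288.7, 259.1 and 302.5 FPKM. The sums overlapped, with a mean difference of −9.85% (exact permutation test, two-sided, p = 0.2), which was −5.98% without wild boar 2 and −6.63% without Rongchang 3. The chaperones CALR, CANX and PDIA3 set this sum, at 296.5 ± 19.8 FPKM in Rongchang and 268.7 ± 23.3 FPKM in wild boar, a difference of −9.38% (exact permutation p = 0.2). It was −5.12% without wild boar 2 and −5.96% without Rongchang 3. The loading factors and peptidases, TAP2, TAPBP, ERAP1 and ERAP2, summed to 19.0, 16.6 and 17.9 FPKM in Rongchang and to 15.3, 15.7 and 13.1 FPKM in wild boar. Here the breeds did not overlap, with a mean difference of −17.5% at the smallest p this design can give (exact permutation test, p = 0.1). TAPBP supplied most of that sum. After median scaling the difference was −7.21% (exact permutation p = 0.5), and the sum of all 7 genes turned to 2.16% higher in wild boar.

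Libraries with the same animal number deviated from their breed means together across genes, so ratios within a number were also taken. ERAP1 in wild boar stood at 0.502, 0.873 and 0.767 of its level in the Rongchang pig of the same number. For TAPBP the ratios were 0.886, 0.924 and 0.734, for CANX 0.957, 0.853 and 0.925, and for CALR 0.998, 0.785 and 0.846. These 4 genes were lower in wild boar in 3 of 3 pairs, while PDIA3 (0.977, 0.888 and 1.01) and ERAP2 (0.913, 1.53 and 0.647) were lower in 2 of 3. For ERAP1, TAPBP and CANX this follows from the lack of overlap, whichever libraries are paired, and adds nothing to it. The share of all genes lower in every pair was not computed, and 77.9% of all genes tested had a fold change below 0. Median scaling left ERAP1 and TAPBP as the 2 tested genes with all ratios below 1, the highest of them being 0.932 for ERAP1 and 0.987 for TAPBP.

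**Figure D3:**
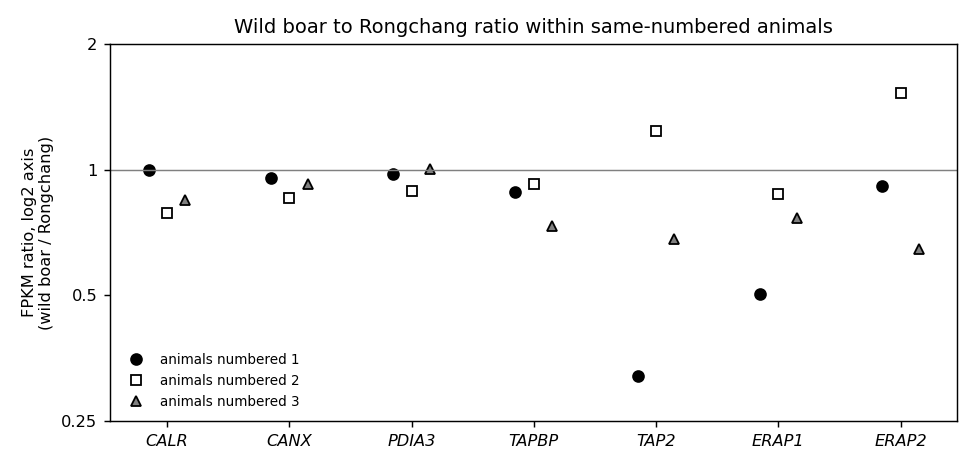
Ratio of wild boar to Rongchang FPKM within animals of the same number for the 7 genes, on a log2 axis where 1 means equal levels. Circles, squares and triangles are the animals numbered 1, 2 and 3. The chaperone ratios lie between 0.785 and 1.01, while those of ERAP2 spread from 0.647 to 1.53 and those of TAP2 from 0.321 to 1.24.

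Other genes of the pathway were taken from 7 lists with 91 entries, of which 58 had a row and 55 were tested. By limma 0 of the 55 passed in either direction, 4 had an unadjusted p under 0.05, all lower in wild boar, and 48 (87.3%) had a fold change below 0. The count of 4 is near the 5.42% of all genes that were lower at that threshold. TAPBPL, LNPEP, PSMB9 and MR1 are outside the rule by which genes were named: they were picked with their values already known.

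Upstream of the transporter, proteasomes and cytosolic peptidases make and destroy peptides. Of the proteasome activator and immunoproteasome list, 3 of 7 genes were tested. All 3 lay below 0 (median −0.17), where 77.9% of all genes did. PSME1, a subunit of the PA28 proteasome activator, was at 30.4, 18.6 and 41.4 FPKM in the Rongchang pigs and at 28.1, 16.96 and 28.7 FPKM in wild boar. PSME2, its partner subunit, was at 15.1, 7.30 and 17.5 FPKM and at 14.2, 6.93 and 13.3 FPKM. Both genes were lowest in the libraries numbered 2 of both breeds, and the breeds overlapped. The microglial complement gene C1QA was also lowest in those libraries, at 19.8 and 14.3 FPKM against 30.5 to 46.4 FPKM in the other 4. Within wild boar every tested microglia marker was lowest in library 2. Within Rongchang ITGAM, CD68 and PTPRC were not, while the rest were. The blood gene HBB and the astrocyte gene CLU were also lowest in the libraries numbered 2, so this order is not particular to microglia. The part of any cell type in the PSME1 and PSME2 values was not tested. PSME3, the nuclear activator subunit, did not share this order (26.3, 30.3 and 30.3 FPKM in Rongchang; 23.6, 29.2 and 26.1 FPKM in wild boar).

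All 7 cytosolic peptidases tested lay below 0, where 77.9% of all genes did, and their median of −0.13 was near that of all genes. THOP1, thimet oligopeptidase, which degrades peptides before they reach the transporter, was at 10.4, 10.75 and 13.1 FPKM in the Rongchang pigs and at 8.04, 9.34 and 6.26 FPKM in wild boar. The breeds did not overlap, with all wild boars lower, where the same held for 11.4% of all genes (log2 fold change −0.49, unadjusted p = 0.025, limma adjusted p = 0.789). The most abundant of the list was the puromycin-sensitive aminopeptidase NPEPPS, at 36.9 ± 4.68 and 35.4 ± 5.58 FPKM. NRDC stood at 13.3 ± 0.71 and 11.7 ± 1.37 FPKM, and IDE, the insulin-degrading enzyme, at 4.26 ± 0.408 and 3.83 ± 0.295 FPKM.

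Among other loading and quality-control factors, 9 of 10 tested genes lay below 0 (median −0.11), where 77.9% of all genes did. The exception was TAPBPL, a tapasin-related peptide editor, at 12.9, 12.7 and 13.96 FPKM in the Rongchang pigs and at 11.9, 14.4 and 16.3 FPKM in wild boar (log2 fold change 0.09, limma adjusted p = 0.908). Its level was close to that of TAPBP, and it was highest in wild boar 3, where TAPBP was lowest. GANAB, the catalytic subunit of glucosidase II, which trims glycans so that calnexin and calreticulin can bind, was at 25.6, 28.4 and 29.2 FPKM in the Rongchang pigs and at 23.0, 25.3 and 20.8 FPKM in wild boar (log2 fold change −0.26, limma adjusted p = 0.796). UGGT1, which marks misfolded glycoproteins for another round with those chaperones, stood at 3.18 ± 0.856 and 2.53 ± 0.787 FPKM, and the disulfide-exchange gene TXNDC11 at 2.86 ± 0.381 and 2.50 ± 0.46 FPKM. BCAP31, an export receptor of the endoplasmic reticulum, was the most abundant at 146.6, 93.1 and 191.6 FPKM in Rongchang pigs and 144.3, 80.1 and 147.3 FPKM in wild boars, again lowest in the libraries numbered 2. Of the class I heavy chain and class I-like list only FCGRT and MR1 of 14 genes had a matched row, and the classical heavy chains are not analysed here. FCGRT, the neonatal Fc receptor, stood at 22.97 ± 5.22 and 21.6 ± 3.9 FPKM, and MR1 did not exceed 0.286 FPKM in any library.

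**Figure D4:**
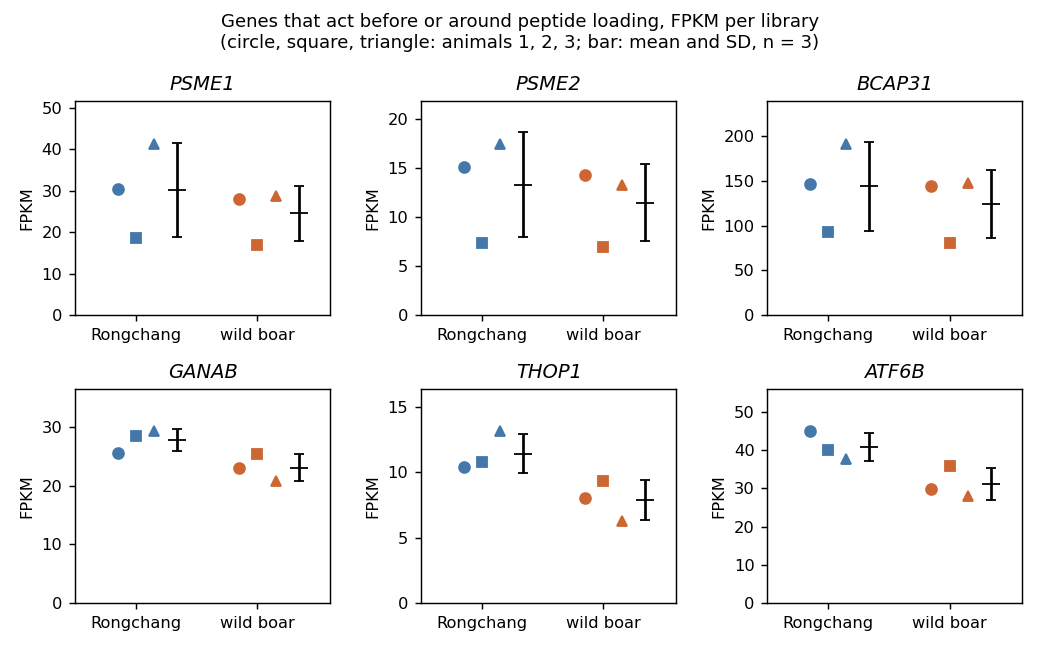
FPKM per library of 6 genes that act before or around peptide loading, with breeds on the x axis, 1 symbol per animal, and black bars for the mean and SD (n = 3). PSME1, PSME2 and BCAP31 are lowest in the animals numbered 2 of both breeds (squares), while all wild boars lie below all Rongchang pigs for GANAB, THOP1 and ATF6B. These last genes were among those with the smallest p of their lists. All wild boars were lower for 7 of the 55 tested list genes and for 11.4% of all genes.

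Regulators of class I transcription include the interferon-signalling factors STAT2 and IRF1. Of 11 tested, 9 lay below 0 (median −0.19), where 77.9% of all genes did. STAT2 was at 11.9 ± 1.01 and 8.95 ± 2.33 FPKM and IRF1 at 5.43 ± 1.53 and 3.98 ± 0.958 FPKM, both with overlap. The most abundant, the kinase JAK1, was at 30.8 ± 7.24 and 30.7 ± 9.15 FPKM.

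Chaperones and folding enzymes of the endoplasmic reticulum are the family to which CALR, CANX and PDIA3 belong by function. Of 17 other genes tested, 13 lay below 0, where 77.9% of all genes did. Their median was −0.10, and 0 had an unadjusted p under 0.05. HSPA5, the Hsp70 chaperone BiP, was the most abundant, at 132.8 ± 19.7 FPKM in Rongchang and 123.3 ± 15.9 FPKM in wild boar. CRELD2 stood at 4.82 ± 1.34 and 3.49 ± 0.284 FPKM, the calcium-binding protein RCN2 at 50.8 ± 8.23 and 40.2 ± 5.18 FPKM, and the oxidase ERO1A at 8.07 ± 0.891 and 6.21 ± 0.981 FPKM. Limma adjusted p for CRELD2, RCN2 and ERO1A ran from 0.789 to 0.794. All 6 regulators of the stress response of this compartment lay below 0 (median −0.25), where 77.9% of all genes did. Of the 6, 2 had an unadjusted p under 0.05, where 5.42% of all genes were lower at that threshold. ATF6B was at 44.9, 40.0 and 37.7 FPKM in the Rongchang pigs and at 29.8, 35.9 and 27.9 FPKM in wild boar without overlap (log2 fold change −0.38, limma adjusted p = 0.789). Such a lack of overlap, with all wild boars lower, held for 11.4% of all genes. ATF6, the sensor that becomes a transcription factor for CALR and HSPA5 under stress, was at 7.76, 10.2 and 6.08 FPKM and at 6.25, 5.51 and 4.22 FPKM (log2 fold change −0.50, limma adjusted p = 0.789). EIF2AK3, the stress kinase PERK, stood at 9.37 ± 0.67 and 7.80 ± 0.884 FPKM, and XBP1 at 62.7 ± 22.3 and 58.5 ± 13.2 FPKM.

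**Figure D5:**
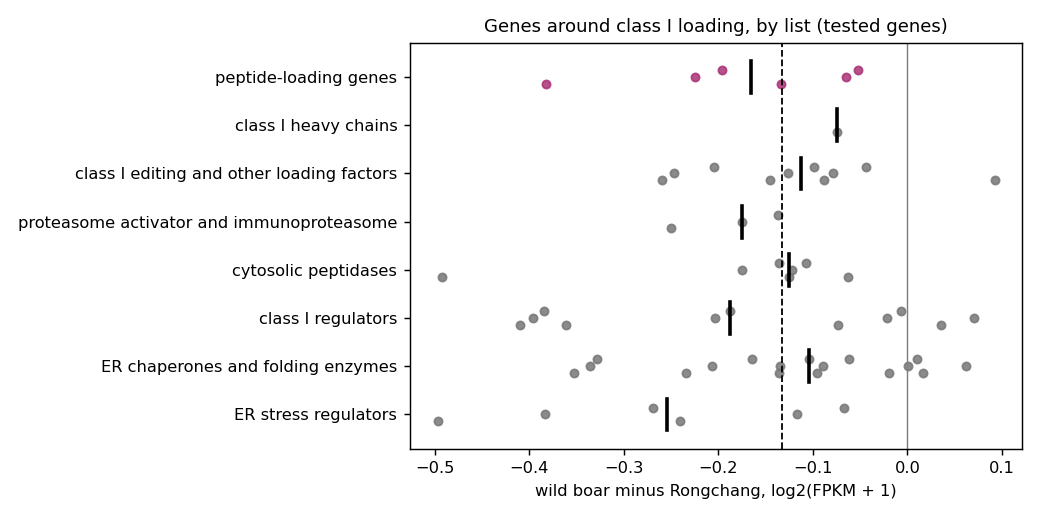
Difference between breeds of each tested gene in the 7 pathway lists and of the peptide-loading genes themselves, in log2(FPKM + 1), with negative values lower in wild boar. Each point is a gene, black ticks are list medians, and the dashed line is the median of all genes at −0.13. The list medians lie between −0.25 and −0.07, around the dashed line. The value of −0.07 belongs to the class I heavy chain list, where FCGRT was the only tested gene.

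Markers of cell types known for class I presentation were read beside these values. Of 16 microglia markers 11 had a row and were tested. Their summed level ran from 119 to 186 FPKM in Rongchang and from 94.9 to 196 FPKM in wild boar. Of the 11, 5 lay below 0 (median 0.05), where 77.9% of all genes did. Of 14 endothelial and pericyte markers 9 were tested, summing to 53.9 to 88.9 FPKM in Rongchang and to 67.9 to 95.1 FPKM in wild boar. Of the 9, 1 lay below 0 (median 0.24), against the same 77.9% of all genes. The T and NK cell markers, 9 of 12 with a row, summed to 6.08 to 8.09 FPKM in Rongchang and to 4.16 to 4.72 FPKM in wild boar, with no overlap. All 4 of them that were tested, CD8A included, lay below 0, where 77.9% of all genes did. Every wild boar was lower for 2 of the 4 (CD8A and SKAP1), where this held for 11.4% of all genes. Of those not tested, all under 1 FPKM, CD3D, CD8B and CD4 had lower means in wild boar and PRF1 and GZMA higher ones. CD8A is the co-receptor that recognises class I molecules. It was at 1.06, 1.003 and 1.11 FPKM in the Rongchang pigs and at 0.484, 0.487 and 0.418 FPKM in wild boar. CD8A reached the minimum of 1 FPKM in the Rongchang pigs only. It was thus tested only because of its level there. Its fold change is not read, nor are the T and NK counts and sum that include it. CD2 reached the minimum in Rongchang 2, Rongchang 3 and wild boar 1 only. Among B and plasma cell markers 3 of 6 had a row, and they summed to 1.26 FPKM at most. The part of any of these cells in the ERAP1, TAPBP and CANX values was not tested.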

How the data were processed

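The authors deposited 1 table with 1 value per gene and library for 6 libraries. Its header names no unit, and the values were judged to be FPKM from the tools that the submitters' processing notes name without a role (Cuffdiff, Cufflinks 2.2.1, TopHat2 2.0.11). Per the labels' protocols, poly(A) RNA was made into dUTP-marked libraries and read as paired ends. Genome build, annotation release and strand setting: not given in the sources used here. Coordinates and sequences are therefore left out. A symbol was paired with 10937 of 18225 identifiers.

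Wild boar was compared with Rongchang by limma 3.58.1 in R 4.3.3 with a mean-variance trend, two-sided, on log2(FPKM + 1), for the 13152 genes that reached 1 FPKM in 3 or more libraries. Fold changes on this scale understate changes of low genes. P-values were adjusted by Benjamini-Hochberg over all genes tested, with a threshold of 0.05. Sums and ratios were tested by exact permutation in scipy 1.17.1. Of 5 planned ratios, 3 had values for both genes. The procedure was checked on simulated data with independent libraries and changes larger than those of the members. The check therefore does not say whether changes as small as theirs would be found.

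All members with a row were named. Of each pathway list, the 3 genes with the smallest p and the most abundant were named, except 1 gene that is not reported here. Members and lists were chosen with earlier results of these data known. Alternatives covered pseudocount, filter, scaling, library weights, left-out libraries and the animal number as a block. Deviations of same-numbered libraries correlated at 0.28, 0.59 and 0.37, above the bound of 0.1, so the numbers were taken to pair libraries from the data alone. The labels do not say what a number marks, and Rongchang 1 with wild boar 3 also reached 0.12.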

Additional observations from a re-analysis of the deposited data

How the results depend on the processing

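No member passed in any of 18 alternative fits, and the lowest adjusted p was 0.283 (limma). With the animal number as a replicate block 1 gene was called in all. Of the members, 6 lay below 0, 1 had an unadjusted p under 0.05 and 0 passed, so the block changed no call of a member. Genes with an unadjusted p under 0.05 rose from 789 to 2289 with it. The count of all genes called, 1 as reported, was 3 with a pseudocount of 0.1, 3 after rescaling without mitochondrially encoded genes, 0 with a mean of at least 5 FPKM, 0 without both libraries numbered 2, and 0 to 4 when 1 library was left out (0 without Rongchang 3, 4 without wild boar 1). Members below 0 numbered 3 after median scaling, with or without the block, and 5 to 6 when 1 library was left out. Members with an unadjusted p under 0.05 numbered 0 with no filter, with the stricter filter (ERAP1 was then not tested), after median scaling with or without the block, after quantile normalization, after rescaling without mitochondrially encoded genes and without a mean-variance trend, and 0 to 1 when 1 library was left out (0 without Rongchang 1, Rongchang 3, wild boar 1 or wild boar 2).

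Of 106 member values under alternatives, 11 changed sign. ERAP2 turned to 0.046 after median scaling, 0.046 with median scaling and the block, 0.072 after quantile normalization, and 0.059 and 0.053 without Rongchang 1 and Rongchang 3 (−0.27 to 0.059 over left-out libraries). CANX turned to 0.038 after median scaling and 0.038 with the block added. PDIA3 turned to 0.11 after median scaling, 0.11 with the block added, 0.056 after quantile normalization and 0.00048 without wild boar 2 (−0.13 to 0.00048 over left-out libraries). ERAP1 stayed between −0.50 and −0.25, TAPBP between −0.30 and −0.06, and CALR between −0.28 and −0.02. After median scaling the summed members turned to 2.16% and the summed chaperones to 2.72%. Left-out libraries moved the log2 difference of CALR to CANX between −0.14 and 0.022 (without Rongchang 3) and that of PDIA3 to TAPBP between −0.0048 (without wild boar 3) and 0.31. The causes were not tested. Summing all rows of a symbol gave nothing new, since each member had 1 row. Depth is unknown, so the precision of the low TAP2 values cannot be given.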
